A study of Mus musculus with 16 samples.

Results

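Glutathione transferases (GSTs), the transcription factor NRF2 and a set of its well-known target genes were followed across tumors and the liver tissue around them. The genes were chosen by name: protein-coding genes of the count table whose mouse symbol begins with Gsta, Gstm, Gstp, Gstt, Gsto, Gstk, Gstz or Mgst, plus 16 named NRF2 pathway genes, each with at least 160 counts over the 16 libraries. Among 54838 genes, 41 had such a symbol and 37 reached the minimum, 21 of them transferases. The 4 that did not were Gstp3, Mgst2 with 34 counts, Gsto2 with 23 and Gstt4 with 3. All 37 passed the filter on low counts, Slc7a11 through the tumors in which it was high. Slc7a11 and Cbr3 also reached the minimum of 160 counts only through tumors. Their calls as higher in tumors are thus not independent of how they were kept. The 16 RNA-seq libraries came from 8 mice with the genotype HrasG12V, an activated Ras oncogene, and each mouse gave 1 tumor library and 1 library of peri-tumor liver. The 4 groups of 4 libraries were TCM tumor, TCM peri-tumor, control tumor and control peri-tumor, where TCM mice received a traditional Chinese medicine decoction and control mice did not. The labels add 3 months to every library without saying what it times, and the treatment text names Ras-transgenic and DEN-induced mice together, so whether these mice also received the carcinogen DEN is not stated. The labels give neither the promoter that drives the transgene nor the composition of the decoction, and no group without HrasG12V was analysed here.

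Glutathione transferases couple the tripeptide glutathione to electrophilic drugs, carcinogens and products of lipid peroxidation, and the liver holds very high amounts of them. NRF2, the product of Nfe2l2, is held down by KEAP1, which marks it for breakdown. When electrophiles or oxidants modify KEAP1, NRF2 builds up, pairs with a small MAF protein and binds antioxidant response elements in genes for glutathione synthesis, quinone reduction, thioredoxin recycling and NADPH supply. NRF2 is controlled mostly at the protein level, so its mRNA is an incomplete guide to its activity.

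Libraries held 13947483 to 16194224 counts, and members took 0.363% to 0.856% of a library. Both libraries of control mouse 4 and the tumor library of TCM mouse 3 stood apart from their groups. Members took 0.422% of counts in control tumor 4 against 0.525% to 0.747% in the other control tumors, and 0.363% in control peri-tumor 4 against 0.588% to 0.619% in the other control peri-tumor libraries. In TCM tumor 3 the share was 0.403%, against 0.586% to 0.647% in the other TCM tumors. The tissue labels were checked against marker genes. The 7 hepatocyte markers found in the table summed to 118807 to 186925 CPM in TCM tumors against 99431 to 150018 in TCM peri-tumor (CPM are counts scaled to equal library totals). In control mice they summed to 113827 to 156622 CPM in tumors against 72970 to 111943 in peri-tumor, without overlap. The tumor markers Afp and Gpc3 summed to 372 to 833 CPM in TCM tumors against 2.31 to 23.3 in TCM peri-tumor, and to 630 to 1645 CPM in control tumors against 4.65 to 14.3 in control peri-tumor. Markers of other cells moved with the tissue too. The 8 cholangiocyte markers summed to 568 to 1676 CPM in TCM tumors against 47.1 to 89.0 in TCM peri-tumor, and to 1203 to 2598 CPM in control tumors against 43.9 to 104 in control peri-tumor. Of the 8, 5 had at least 40 counts in TCM tumors, 4 in TCM peri-tumor, 5 in control tumors and 6 in control peri-tumor. These sums thus rest on part of the list. The 8 macrophage markers summed to 112 to 372 CPM in TCM tumors against 326 to 408 in TCM peri-tumor, and to 309 to 477 CPM in control tumors against 601 to 1375 in control peri-tumor. The 8 stellate and fibroblast markers summed to 244 to 380 CPM in TCM tumors against 161 to 205 in TCM peri-tumor, and to 301 to 615 CPM in control tumors against 106.04 to 204 in control peri-tumor. The 6 erythroid markers summed to 281 to 395 CPM in TCM tumors against 482 to 750.5 in TCM peri-tumor, and to 247 to 561 CPM in control tumors against 542 to 788 in control peri-tumor. No marker of these 4 lists was at 0 over a whole group, and the part of these cells in the results below was not tested. In bulk tissue, fewer cells of a type and less RNA per cell cannot be told apart.

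In tumors of both treatments the cystine carrier Slc7a11, the reductases Cbr3 and Nqo1 and the transferase Gsta1 were among the members that rose, and the transferases Mgst1 and Gstk1 among those that fell. In TCM mice 8 of the 37 members (21.6%) rose and 9 (24.3%) fell in tumors against peri-tumor tissue, where 17.3% and 15.6% of the 14865 genes tested did so (edgeR quasi-likelihood test, Benjamini-Hochberg adjusted p under 0.05). In control mice 17 (45.9%) rose and 9 (24.3%) fell, against 22% and 21.2% of all genes. The share that rose in TCM mice and the share that fell in control mice were thus close to those of all genes. Slc7a11 and Cbr3, which reached the count minimum only through tumors, are among those that rose in both treatments. The shares that rose are thus not independent of how members were kept. The members' median log2 fold change was -0.10 in TCM mice and 0.35 in control mice, beside 0.00 for all genes in both. Of the 21 transferases 2 rose and 8 fell in TCM mice, and 7 rose and 6 fell in control mice. Of the 16 other members 6 rose and 1 fell in TCM mice, and 10 rose and 3 fell in control mice. Tumors and peri-tumor libraries did not overlap for 5 members above and 10 below in TCM mice (17.3% and 16.6% of all genes) and for 15 above and 4 below in control mice (20% and 18.8%). In both treatments Cbr3, G6pdx, Gsta1, Gstm5, Nqo1, Pgd, Slc7a11 and Srxn1 rose and Gsta3, Gstk1, Gsto1, Gstz1 and Mgst1 fell, and Aox1 rose in control tumors but fell in TCM tumors.

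**Figure D1:**
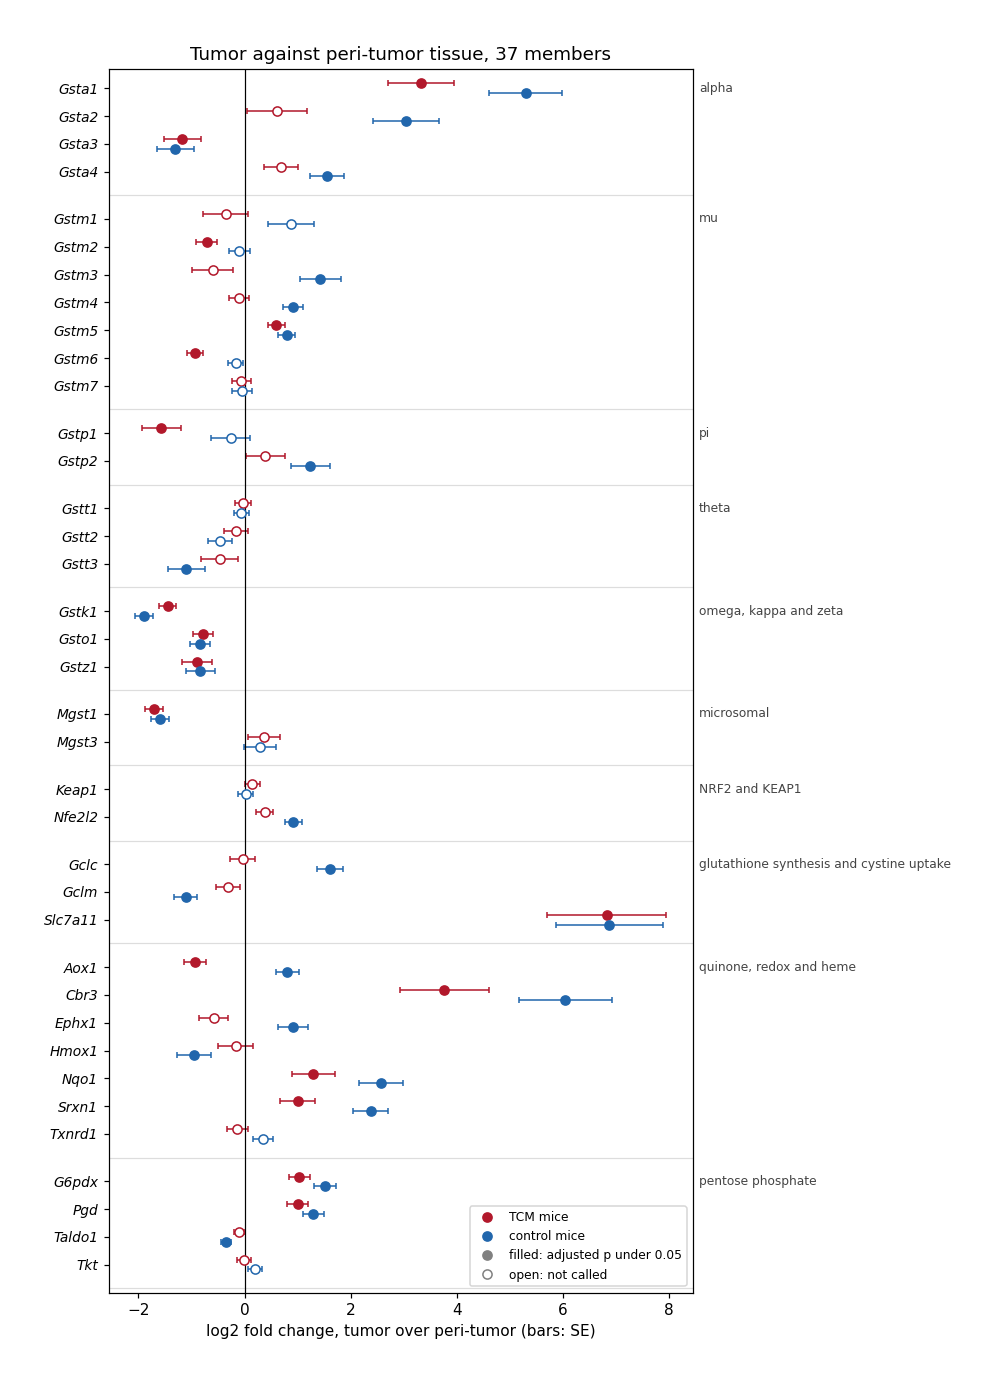
Log2 fold change of tumor over peri-tumor tissue for each of the 37 members, in TCM mice (red) and control mice (blue), with SE bars and filled points at adjusted p under 0.05. Slc7a11 and Cbr3 lie farthest to the right, Gstk1 and Mgst1 farthest to the left, and Gclc and Aox1 differ between the treatments.

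Between treatments, 5 of the 7 mu-class transferases, Gclc and Aox1 were among the members that rose in the peri-tumor liver of TCM mice. There 10 of 37 (27%) rose and 1 (2.7%) fell in TCM against control mice, where 6.71% and 7.35% of all genes did so, and the median of the members was 0.37 beside 0.00 for all genes. The 10 were Gstm2, Gstm3, Gstm4, Gstm6, Gstm7, Mgst1, Gclc, Aox1, Ephx1 and G6pdx, and the 1 was Hmox1. Either direction taken, 14.1% of all genes were called there. Every TCM peri-tumor library was above every control one for 13 members (9.12% of all genes) and below for 1 (8.86%). In tumors 4 members (10.8%) rose (Gstm6, Gstm7, Gstk1 and Gclm) and none fell, where 4.55% and 2.72% of all genes did so (7.28% in either direction). Every TCM tumor was above every control tumor for 6 members (8.83% of all genes), and below for none (7.04%). At an unadjusted p under 0.05, 6 members were lower in TCM tumors (Nfe2l2, Txnrd1, Hmox1, Nqo1, Srxn1 and Cbr3), and DESeq2 called 2 of them, Hmox1 and Nqo1. A direct test of whether the tumor effect differed between treatments called 2 members, Gclc and Aox1, both with a lower effect in TCM mice (5.41% of members, against 0.404% of all genes), and none with a higher one (0.706% of all genes, and 1.11% in either direction). No member with a higher effect was called by DESeq2 either, and at an unadjusted p under 0.05 there was 1, Gclm. Some of these counts rest on control mouse 4, the only mouse left out whole. It stood apart by its low share of these same members, so leaving it out is no independent test of them. Without its libraries 3 members fell in TCM tumors (Cbr3, Nqo1 and Srxn1), 3 fell in TCM peri-tumor tissue (Hmox1, Gsto1 and Mgst3), and the tumor effect was lower in TCM mice for 9 members and higher for 1, Hmox1. DESeq2 on all libraries called 8 members with a lower tumor effect in TCM mice.

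**Figure D2:**
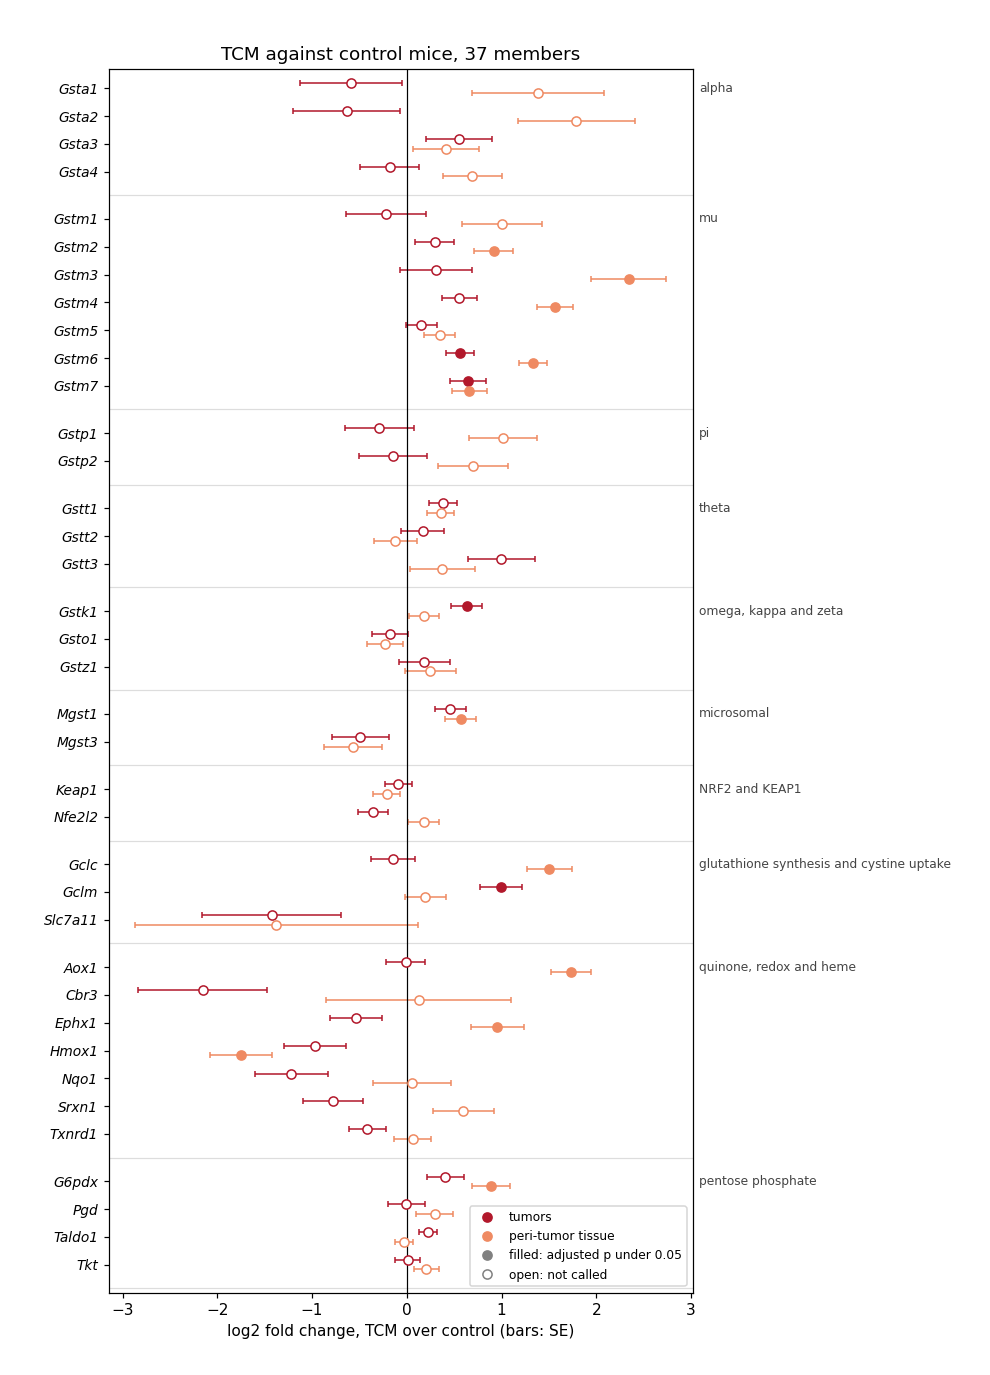
Log2 fold change of TCM over control mice for each member, in tumors (red) and in peri-tumor tissue (orange), with SE bars and filled points at adjusted p under 0.05. Filled orange points gather among the mu-class transferases, with Gclc, Aox1, Ephx1 and G6pdx beside them, while Cbr3, Nqo1 and Srxn1 in tumors lie to the left of 0 with open points.

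NRF2 mRNA rose in control tumors while the mRNA of its inhibitor was not called in any comparison. Nfe2l2 (chr2:75675513-75704641, GRCm38) had 76.7, 82.0, 73.8 and 131 CPM in TCM tumors of mice 1 to 4, against 61.9, 61.4, 77.0 and 78.1 CPM in TCM peri-tumor tissue. Nfe2l2 in control mice was at 109.3, 105.01, 115 and 135 CPM in tumors, against 66.6, 58.3, 61.2 and 59.8 CPM in peri-tumor tissue. TCM tumors and peri-tumor samples overlapped, with tumor 4 far above the other 3, whereas every control tumor lay above every control peri-tumor sample. The rise in control tumors was called (log2 0.92 ± 0.16 SE, adjusted p = 0.000299), and the higher mean in TCM tumors was not (log2 0.38 ± 0.16 SE, adjusted p = 0.0799). Without TCM tumor 1 or 3 the comparison in TCM mice passed (adjusted p = 0.0497 and 0.0467), and without TCM tumor 4 Nfe2l2 was lower in TCM than in control tumors (adjusted p = 0.0129) with a lower tumor effect (0.0353). Keap1 had 65.9, 50.3, 62.7 and 69.6 CPM in TCM tumors, against 59.5, 63.6, 45.4 and 55.8 CPM in TCM peri-tumor tissue. Keap1 in control mice was at 73.2, 65.6, 73.7 and 51.9 CPM in tumors, against 70.6, 72.7, 59.8 and 56.8 CPM in peri-tumor tissue. The 4 groups of Keap1 overlapped, and its adjusted p ran from 0.339 to 0.907 over the 5 comparisons.

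Other regulators of the pathway were read from a list of 12 genes, of which 11 were tested. In TCM tumors 3 rose and 1 fell (median log2 0.16), and in control tumors 3 rose and 1 fell (median 0.16), beside a median of 0.00 for all genes in both. Of all genes 17.3% rose and 15.6% fell in TCM tumors and 22% rose and 21.2% fell in control tumors, so counts this low in 11 genes say little about the list. Bach1, a repressor that competes with NRF2 at the same elements, averaged 109.9 ± 32.7 CPM in TCM tumors and 75.8 ± 16.6 in TCM peri-tumor (log2 0.54 ± 0.19 SE, adjusted p = 0.0416), and 151 ± 2.09 in control tumors and 57.2 ± 7.04 in control peri-tumor (log2 1.40 ± 0.19 SE, adjusted p = 3.67e-05; mean ± SD, n = 4). Of the small MAF proteins, the partners of both NRF2 and BACH1, Maff rose in TCM tumors (log2 1.23 ± 0.34 SE, adjusted p = 0.0112) and in control tumors (log2 2.14 ± 0.35 SE, adjusted p = 0.000135), as did Mafk (log2 0.76 and 1.05). Mafg fell in control tumors (log2 -0.87 ± 0.16 SE, adjusted p = 0.000365) and had a log2 fold change of -0.37 ± 0.16 SE in TCM tumors, which was not called. The gene that fell in TCM tumors was Rbx1 (log2 -0.27 ± 0.09 SE, adjusted p = 0.03), part of the ubiquitin ligase that KEAP1 brings to NRF2. In TCM against control mice Cul3, the scaffold of that ligase, rose in peri-tumor tissue (log2 0.43 ± 0.10 SE, adjusted p = 0.0125; median of the list 0.26), and none was called in tumors (median 0.11). Rbx1 and Cul3 were picked out after their values were seen.

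The letters TGACNNNGC, the core of the antioxidant response element, were searched on both strands in the 300 bases from 250 before to 50 after each gene's start (RefSeq, GRCm38.p6). Of 33 members with such a window 10 held it (30.3%), against 14% of 27025 genes of the table. Counted by window, 10 of 44 member windows held it (22.7%), against 12.4% of all 32851 windows. Part of the members were chosen as NRF2 pathway genes, so the list was not independent of this element. Gstt2, Hmox1, Gclc and Gsta4 had no entry. Among members called higher in control tumors 5 of 15 held the letters, among those called lower 3 of 8, and among those not called 2 of 10. The stretches around 6 upstream matches follow, to show which members carry the letters close to their start, with the match in capitals. The first 3 come from members that rose in control tumors (Gstm5, G6pdx and Nfe2l2) and the last 3 from members that fell there (Gclm, Gsta3 and Mgst1). The matches of G6pdx, Gclm and Mgst1 read the letters on the opposite strand.
Gstm5: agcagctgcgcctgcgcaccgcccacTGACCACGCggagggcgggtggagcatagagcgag
G6pdx: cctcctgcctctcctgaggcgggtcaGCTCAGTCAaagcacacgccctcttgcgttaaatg
Nfe2l2: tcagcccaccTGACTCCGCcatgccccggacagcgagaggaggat
Gclm: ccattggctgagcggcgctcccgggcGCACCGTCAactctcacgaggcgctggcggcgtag
Gsta3: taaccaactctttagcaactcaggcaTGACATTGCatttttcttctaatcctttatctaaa
Mgst1: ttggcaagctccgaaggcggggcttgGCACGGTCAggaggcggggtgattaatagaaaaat
They lie at chr3:107895786-107895846, chrX:74428903-74428963 (minus strand), chr2:75704869-75704913 (minus strand), chr3:122245397-122245457, chr1:21240438-21240498 and chr6:138140445-138140505. Counted from the RefSeq start, the match begins at base -42 for Gstm5, -57 for G6pdx, -240 for Nfe2l2, -134 for Gclm, -121 for Gsta3 and -56 for Mgst1. Members that rose and members that fell both carry it. A match of letters is a description of these windows and shows no binding.

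The 3 genes of glutathione supply differed in direction. Slc7a11 (chr3:49892526-50443614), the cystine carrier that brings in the limiting amino acid of glutathione, was almost silent outside tumors. It had 63.4, 22.3, 0.649 and 57.3 CPM in TCM tumors, against 0.0661, 0.202, 1.06 and 0 CPM in TCM peri-tumor tissue. Slc7a11 in control mice was at 88.8, 79.0, 163 and 56.1 CPM in tumors, against 0.255, 0.726, 1.78 and 0.488 CPM in peri-tumor tissue. All 4 control tumors and 3 of 4 TCM tumors were far above every peri-tumor library, while TCM tumor 3 lay within the peri-tumor range. The rise was called in TCM mice (log2 6.82 ± 1.13 SE, adjusted p = 0.000278) and in control mice (log2 6.87 ± 1.014 SE, adjusted p = 6.09e-05). The size of the fold rests on few peri-tumor counts, 18 in TCM and 51 in control mice over 4 libraries, and was log2 8.55 without TCM peri-tumor 3 and 7.59 without control peri-tumor 3.

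Gclc (chr9:77754535-77794485), the catalytic subunit of the enzyme that sets the pace of glutathione synthesis, was low in control peri-tumor tissue and higher in the other groups. It had 651, 418, 326 and 636 CPM in TCM tumors, against 592, 419.6, 616 and 458 CPM in TCM peri-tumor tissue. Gclc in control mice was at 537, 518, 769 and 423 CPM in tumors, against 147, 162, 204 and 223 CPM in peri-tumor tissue. The control peri-tumor libraries thus lay below all 12 others, which overlapped one another. Gclc did not pass the test between TCM tumors and TCM peri-tumor (log2 -0.04 ± 0.23 SE, adjusted p = 0.921) and rose in control tumors (log2 1.61 ± 0.24 SE, adjusted p = 6.66e-05). In peri-tumor tissue it rose in TCM against control mice (log2 1.503 ± 0.24 SE, adjusted p = 0.00149), and in tumors it was not called (log2 -0.15 ± 0.23 SE, adjusted p = 0.743). The tumor effect was lower in TCM than in control mice (log2 -1.65 ± 0.33 SE, adjusted p = 0.0297). That difference was at the threshold. With the mouse as a block its adjusted p was 0.0516, and it ran from 0.0546 to 0.07 without control tumor 1, 2 or 3, control peri-tumor 1 or 2, TCM tumor 3 or TCM peri-tumor 1 or 3, each left out alone.

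Gclm (chr3:122245557-122270732), the modifier subunit of the same enzyme, fell in control tumors. It had 169, 124, 171 and 209.7 CPM in TCM tumors, against 259, 151, 279.8 and 149 CPM in TCM peri-tumor tissue. Gclm in control mice was at 78.5, 68.9, 79.1 and 112 CPM in tumors, against 162, 217, 181 and 172 CPM in peri-tumor tissue. Every control tumor lay below every control peri-tumor library and below every TCM tumor. Gclm was not called in TCM tumors against TCM peri-tumor (log2 -0.31 ± 0.22 SE, adjusted p = 0.302) and the fall in control tumors was log2 -1.11 ± 0.22 SE (adjusted p = 0.000853). It rose in TCM against control tumors (log2 0.99 ± 0.22 SE, adjusted p = 0.017; 0.0551 without control tumor 2). An opposite-strand transcript, Gm17494, overlaps Gclm with 3382 counts against 39171, and since no source used here gives the strand used for counting, their reads cannot be told apart.

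Among the targets that reduce quinones and oxidized proteins, the highest group means stood in control tumors. Cbr3 (chr16:93683215-93690990), a carbonyl reductase, had 14.5, 28.7, 1.66 and 23.7 CPM in TCM tumors, against 1.26, 0.607, 1.28 and 1.85 CPM in TCM peri-tumor tissue. Cbr3 in control mice was at 100.04, 63.5, 133 and 9.85 CPM in tumors, against 0.892, 1.15, 2.10 and 0.419 CPM in peri-tumor tissue. It rose in TCM mice (log2 3.77 ± 0.83 SE, adjusted p = 0.00257), although TCM tumor 3 overlapped the peri-tumor range, and in control mice (log2 6.05 ± 0.87 SE, adjusted p = 4.80e-05), where tumor 4 was the lowest. The size of these folds rests on few peri-tumor counts of Cbr3, 74 in TCM and 72 in control mice over 4 libraries. Nqo1 (chr8:107388225-107403206), the classical NRF2-induced quinone reductase, had 14.7, 24.5, 10.2 and 23.7 CPM in TCM tumors, against 7.21, 7.29, 6.65 and 8.63 CPM in TCM peri-tumor tissue. Nqo1 in control mice was at 49.8, 45.2, 62.2 and 13.3 CPM in tumors, against 7.90, 9.32, 8.14 and 3.28 CPM in peri-tumor tissue. No tumor of either treatment overlapped its peri-tumor group, and Nqo1 rose in both (TCM log2 1.30 ± 0.40 SE, adjusted p = 0.0213; control log2 2.57 ± 0.41 SE, adjusted p = 0.000127). In TCM mice its adjusted p was 0.0502 to 0.059 without TCM tumor 2 or 4 or TCM peri-tumor 1 or 3.

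Srxn1 (chr2:152105516-152111376), sulfiredoxin, which restores over-oxidized peroxiredoxins, had 148, 153, 67.4 and 189 CPM in TCM tumors, against 82.5, 62.5, 62.0 and 71.8 CPM in TCM peri-tumor tissue. Srxn1 in control mice was at 284, 206, 366 and 99.5 CPM in tumors, against 45.7, 42.7, 44.6 and 51.4 CPM in peri-tumor tissue. TCM tumor 3 lay within the TCM peri-tumor range, and every control tumor lay above every control peri-tumor library. Srxn1 rose in TCM mice (log2 0.999 ± 0.32 SE, adjusted p = 0.0256) and in control mice (log2 2.37 ± 0.34 SE, adjusted p = 4.10e-05). The call in TCM mice was lost without TCM tumor 2 or 4 or TCM peri-tumor 2, 3 or 4 (adjusted p = 0.0506 to 0.0808). Between treatments, tumors of TCM mice had lower means of these 3 genes that did not pass edgeR's test on all libraries, with a log2 fold change of -2.15 ± 0.68 SE for Cbr3 (adjusted p = 0.0657), -1.22 ± 0.39 for Nqo1 (0.0676) and -0.78 ± 0.32 for Srxn1 (0.145). Control tumor 4 was the lowest control tumor for each, and without it the adjusted p was 0.0164, 0.00897 and 0.0261 for Cbr3, Nqo1 and Srxn1, in that order. Without control peri-tumor 4 it was 0.0431 for Nqo1, and without control tumor 4 the difference of the tumor effect passed for Srxn1 (0.0375). On all libraries DESeq2 called Nqo1 lower in TCM tumors (adjusted p = 0.0243) and the difference of the tumor effect lower for Srxn1 (0.0465). Srxn1 also passed as higher in TCM peri-tumor tissue when only the 2 peri-tumor groups were fitted (adjusted p = 0.0197).

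**Figure D3:**
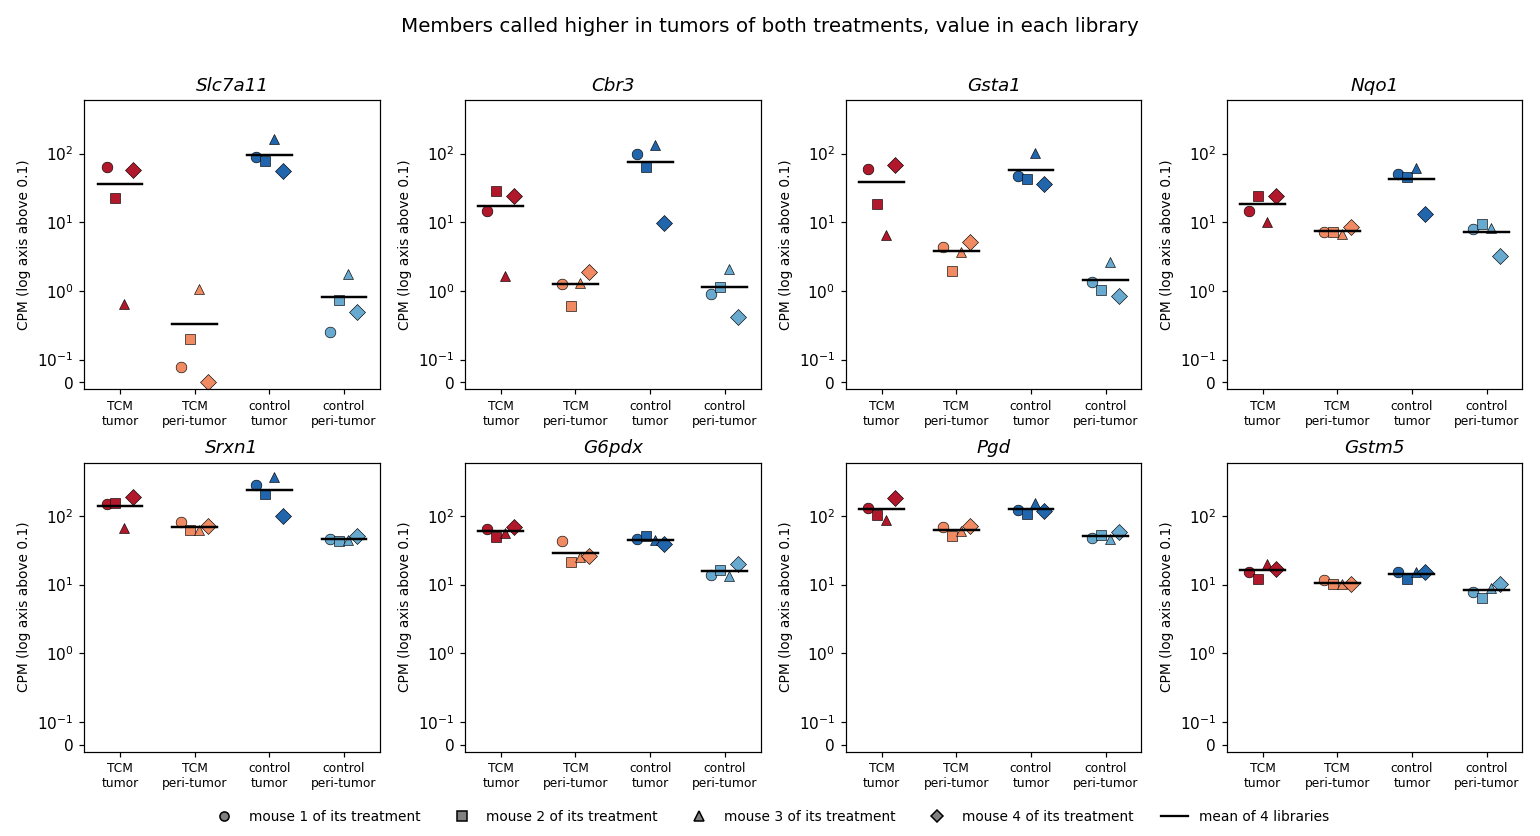
CPM of the 8 members that rose in tumors of both treatments, 1 point per library on an axis that is logarithmic above 0.1 and linear below it, with the mean of each group of 4 as a line and the symbol giving the mouse within its treatment. TCM tumor 3 (triangles) sits near the peri-tumor libraries for Slc7a11 and Cbr3, and control tumor 4 (diamonds) is the lowest control tumor for Cbr3, Nqo1 and Srxn1.

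Aox1 (chr1:58029931-58106413), aldehyde oxidase, which clears aldehydes and nitrogen-containing drugs, had opposite tumor effects in the 2 treatments. It had 46.4, 37.2, 24.7 and 47.1 CPM in TCM tumors, against 72.7, 68.5, 73.1 and 82.2 CPM in TCM peri-tumor tissue. Aox1 in control mice was at 38.5, 32.1, 51.3 and 34.7 CPM in tumors, against 21.6, 18.6, 30.7 and 18.3 CPM in peri-tumor tissue. Every TCM tumor lay below every TCM peri-tumor library, and every control tumor above every control peri-tumor library, while the tumors of both treatments overlapped. Aox1 fell in TCM tumors (log2 -0.93 ± 0.21 SE, adjusted p = 0.0026) and rose in control tumors (log2 0.81 ± 0.21 SE, adjusted p = 0.00506). In TCM against control mice it rose in peri-tumor tissue (log2 1.73 ± 0.21 SE, adjusted p = 0.000239) and had a log2 fold change of -0.01 ± 0.20 SE in tumors (adjusted p = 0.982). The difference of the tumor effect was called (log2 -1.74 ± 0.29 SE, adjusted p = 0.00867) and kept its call under all 22 alternatives.

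Of the other 3 genes of this role, Ephx1 and Hmox1 were called. Ephx1, the microsomal epoxide hydrolase, averaged 198 ± 64.3 CPM in TCM tumors and 295 ± 38.7 in TCM peri-tumor, and 287 ± 40.6 in control tumors and 152 ± 64.8 in control peri-tumor (SD, n = 4). It rose in control tumors (log2 0.91 ± 0.28 SE, adjusted p = 0.0137) and in TCM against control peri-tumor tissue (log2 0.96 ± 0.28 SE, adjusted p = 0.0322). The second call was lost without control peri-tumor 2 or 3 or TCM peri-tumor 1, 2 or 4 (adjusted p = 0.0508 to 0.0884) and when only the groups compared entered the fit (0.0597). With the mouse as a block Ephx1 fell in TCM tumors (adjusted p = 0.0497, against 0.12 without it). Its lower tumor effect in TCM mice (log2 -1.49 ± 0.39 SE, adjusted p = 0.0687 in edgeR) passed in DESeq2 (0.00857) and in edgeR without control mouse 4 (0.0445), TCM tumor 4 (0.0449), control peri-tumor 1 (0.0415) or control peri-tumor 4 (0.0385).

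Hmox1, heme oxygenase, which macrophages also make in quantity when they clear red cells, averaged 13.4 ± 4.17 CPM in TCM tumors and 15.0 ± 1.59 in TCM peri-tumor, and 26.2 ± 12.3 in control tumors and 50.6 ± 17.9 in control peri-tumor. It was the one member that fell in TCM against control peri-tumor tissue (log2 -1.75 ± 0.33 SE, adjusted p = 0.00397), where its libraries had 14.5, 14.2, 17.4 and 14.01 CPM in TCM mice, against 49.7, 64.2, 62.9 and 25.5 CPM in control mice. The summed macrophage markers were lower in the same comparison (326 to 408 CPM in TCM, 601 to 1375 in control peri-tumor), and their part in the result was not tested. Hmox1 also fell in control tumors (log2 -0.95 ± 0.32 SE, adjusted p = 0.0252), but the adjusted p was 0.0611 with the mouse as a block and 0.0508 to 0.0723 without control tumor 1, 2 or 3 or control peri-tumor 2 or 3, and without control mouse 4 the log2 fold change was -1.56. When only the 2 control groups were fitted, the adjusted p of the fall in control tumors was 0.0585. In TCM against control tumors Hmox1 passed without control peri-tumor 4 (adjusted p = 0.0429) and in DESeq2 on all libraries (0.0372). Txnrd1, cytosolic thioredoxin reductase, averaged 150.2 ± 39.9 CPM in TCM tumors and 165 ± 14.9 in TCM peri-tumor, and 200.7 ± 49.5 in control tumors and 158 ± 17.2 in control peri-tumor, and was called in no comparison. Without control tumor 4 it passed in control tumors (log2 0.49, adjusted p = 0.0396).

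**Figure D4:**
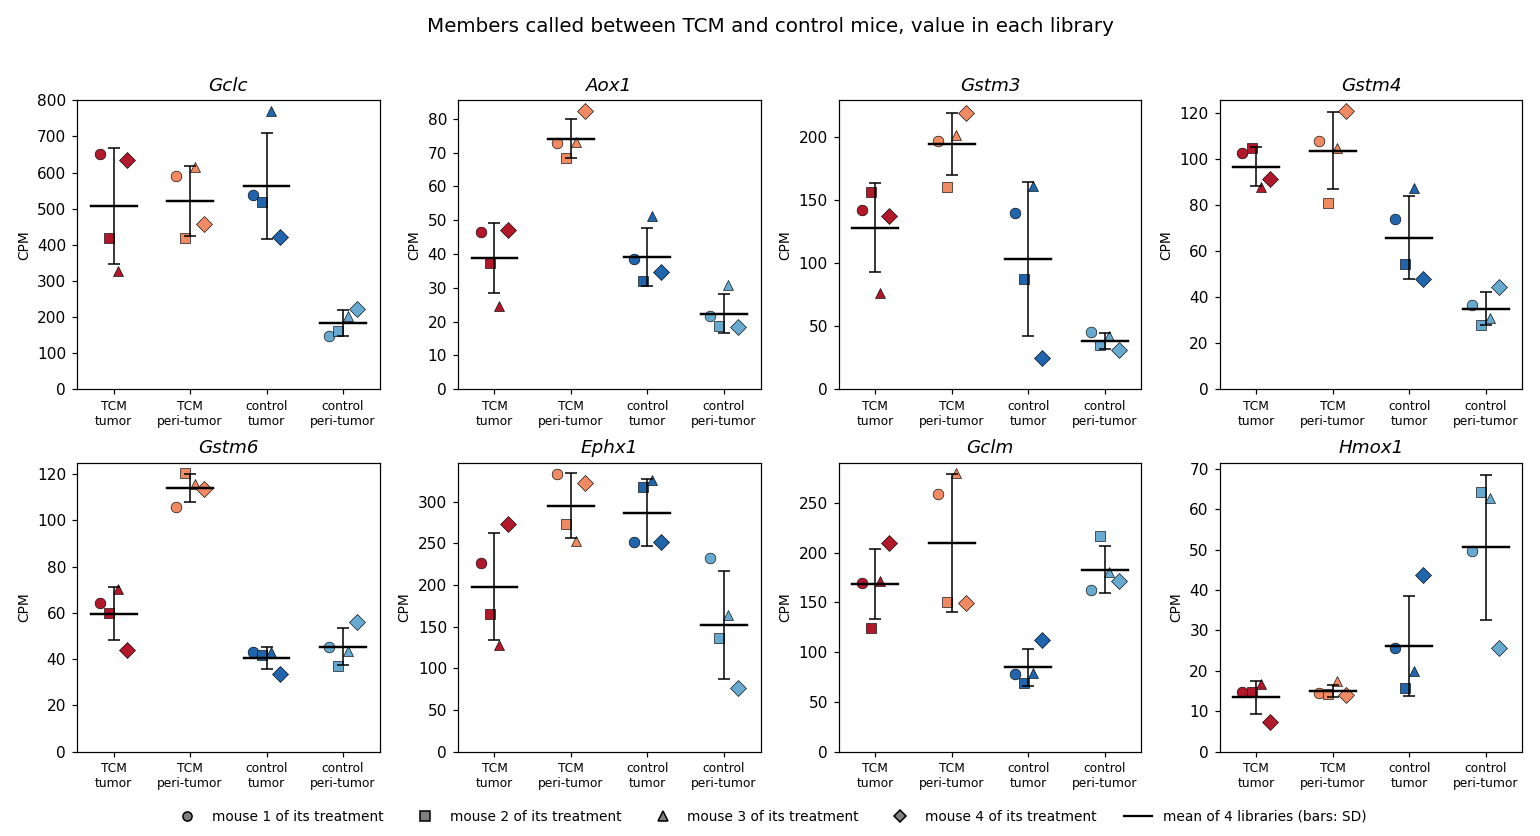
CPM of 8 members called between TCM and control mice, 1 point per library, with the mean and SD of each group of 4 and the symbol giving the mouse within its treatment. For Gclc, Aox1, Gstm3, Gstm4 and Gstm6 the TCM peri-tumor libraries stand above the control peri-tumor libraries without overlap, every control tumor is below all other libraries for Gclm, and Hmox1 has its highest mean in control peri-tumor tissue.

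The 2 enzymes of the oxidative pentose phosphate pathway that make NADPH rose in tumors of both treatments, and the 2 of its non-oxidative part did not. G6pdx, glucose-6-phosphate dehydrogenase, had 65.7, 49.2, 55.8 and 69.0 CPM in TCM tumors, against 43.8, 21.3, 25.6 and 26.3 CPM in TCM peri-tumor tissue. G6pdx in control mice was at 45.6, 52.0, 44.9 and 38.6 CPM in tumors, against 13.6, 16.4, 13.4 and 19.9 CPM in peri-tumor tissue. Tumors and peri-tumor tissue did not overlap in either treatment (TCM log2 1.03 ± 0.20 SE, adjusted p = 0.000873; control log2 1.52 ± 0.20 SE, adjusted p = 2.35e-05), and G6pdx also rose in TCM against control peri-tumor tissue (log2 0.89 ± 0.20 SE, adjusted p = 0.0103). It overlaps Ikbkg on the opposite strand, which had 11018 counts against 9179 for G6pdx, and reads in the overlap cannot be told apart. Pgd, 6-phosphogluconate dehydrogenase, had 131, 102.1, 86.0 and 185 CPM in TCM tumors, against 69.5, 50.7, 61.4 and 70.5 CPM in TCM peri-tumor tissue. Pgd in control mice was at 124, 108.7, 156 and 117 CPM in tumors, against 47.9, 52.2, 46.6 and 59.0 CPM in peri-tumor tissue. Pgd rose without overlap in both (TCM log2 1.0001 ± 0.20 SE, adjusted p = 0.00117; control log2 1.30 ± 0.20 SE, adjusted p = 8.86e-05).

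Taldo1, transaldolase, had 93.1, 81.5, 85.7 and 95.1 CPM in TCM tumors, against 97.8, 91.4, 89.8 and 101.9 CPM in TCM peri-tumor tissue. Taldo1 in control mice was at 72.3, 65.8, 86.9 and 79.8 CPM in tumors, against 91.3, 94.6, 102.04 and 100.2 CPM in peri-tumor tissue. It was lower in the tumor of all 8 mice, a change that was called in control (log2 -0.35 ± 0.10 SE, adjusted p = 0.008) but not in TCM mice (log2 -0.10 ± 0.10 SE, adjusted p = 0.458). Tkt, transketolase, had 165, 159, 168 and 188 CPM in TCM tumors, against 163, 168, 155 and 196 CPM in TCM peri-tumor tissue. Tkt in control mice was at 170.3, 158, 179.7 and 167 CPM in tumors, against 167, 173, 147 and 104 CPM in peri-tumor tissue. All groups of Tkt overlapped, with control peri-tumor 4 the lowest library and TCM peri-tumor 4 the highest. Tkt was called in no comparison. Of 5 further genes of the pathway, none was called in TCM tumors (median log2 0.11), and in control tumors (median 0.23) Rpia rose (log2 0.54 ± 0.21 SE, adjusted p = 0.0441) and the ribokinase Rbks fell (log2 -1.03 ± 0.15 SE, adjusted p = 6.32e-05). Pgls and H6pd were not called, with log2 fold changes of -0.14 and 0.21 in TCM tumors, and -0.20 and 0.23 in control tumors.

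The 4 alpha-class transferases, which reduce lipid peroxides and conjugate many drugs, did not move as 1 block. Gsta1, Gsta2 and Gsta4 lie together on chromosome 9 between 78182774 and 78355788 (GRCm38), near Gclc, and Gsta3 on chromosome 1. Gsta1 had 59.3, 18.7, 6.56 and 68.8 CPM in TCM tumors, against 4.43, 1.96, 3.70 and 5.18 CPM in TCM peri-tumor tissue. Gsta1 in control mice was at 47.4, 43.4, 103 and 36.5 CPM in tumors, against 1.34, 1.03, 2.61 and 0.837 CPM in peri-tumor tissue. No tumor overlapped its peri-tumor group, with TCM tumor 3 the lowest and control tumor 3 the highest, and Gsta1 rose in TCM mice (log2 3.32 ± 0.61 SE, adjusted p = 0.000685) and in control mice (log2 5.30 ± 0.69 SE, adjusted p = 1.90e-05). Gsta2 had 29.1, 9.49, 3.82 and 25.8 CPM in TCM tumors, against 16.5, 8.77, 8.99 and 10.4 CPM in TCM peri-tumor tissue. Gsta2 in control mice was at 21.6, 21.8, 49.1 and 13.8 CPM in tumors, against 4.39, 4.42, 3.50 and 0.488 CPM in peri-tumor tissue. TCM tumors and TCM peri-tumor tissue overlapped (log2 0.61 ± 0.57 SE, adjusted p = 0.445), and Gsta2 rose in control tumors (log2 3.04 ± 0.63 SE, adjusted p = 0.00106). All 4 TCM peri-tumor libraries lay above all 4 control ones, but edgeR's test did not pass (log2 1.79 ± 0.62 SE, adjusted p = 0.0643; 0.0392 without TCM tumor 3 and 0.0431 with only the groups compared). DESeq2 called Gsta2 there (adjusted p = 0.0161) and called its tumor effect lower in TCM mice (0.0498).

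Counts of Gsta1 and Gsta2 are uncertain, because 89.7% of the 50-base words of the Gsta1 transcript and 64.2% of those of Gsta2 also occur in Gm3776, Gm10639 or each other. The sum of these 4 genes had 113, 37.4, 13.4 and 131 CPM in TCM tumors, against 22.8, 12.8, 15.3 and 17.4 CPM in TCM peri-tumor tissue. The sum in control mice was at 92.4, 82.9, 195 and 63.9 CPM in tumors, against 6.88, 6.29, 7.82 and 1.33 CPM in peri-tumor tissue. The sum, an alternative added after seeing the data, rose in TCM tumors (log2 2.11 ± 0.59 SE, adjusted p = 0.0119) and in control tumors (log2 4.27 ± 0.66 SE, adjusted p = 8.68e-05), less than Gsta1 alone. Gsta3, the main alpha form by counts, had 634, 464, 411 and 354 CPM in TCM tumors, against 1256, 1008, 1000 and 927 CPM in TCM peri-tumor tissue. Gsta3 in control mice was at 328, 355, 358 and 234 CPM in tumors, against 842, 1029, 1061 and 213 CPM in peri-tumor tissue. Every TCM tumor was below every TCM peri-tumor library, and control peri-tumor 4 alone lay below every control tumor. Gsta3 fell in TCM (log2 -1.17 ± 0.35 SE, adjusted p = 0.0171; 0.0556 without TCM tumor 4) and control tumors (log2 -1.30 ± 0.35 SE, adjusted p = 0.007).

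Gsta4, specialised for the lipid peroxidation product 4-hydroxynonenal, had 97.0, 32.3, 44.3 and 97.9 CPM in TCM tumors, against 42.6, 34.0, 45.6 and 46.4 CPM in TCM peri-tumor tissue. Gsta4 in control mice was at 72.5, 84.4, 86.0 and 65.0 CPM in tumors, against 36.2, 23.5, 29.6 and 14.9 CPM in peri-tumor tissue. TCM tumors 2 and 3 lay within or below the peri-tumor range and tumors 1 and 4 well above it. Gsta4 rose in control tumors (log2 1.56 ± 0.32 SE, adjusted p = 0.000985) and was not called in TCM tumors (log2 0.69 ± 0.31 SE, adjusted p = 0.105), where it passed without TCM tumor 2 (adjusted p = 0.0189).

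The mu class, which conjugates epoxides and other electrophiles, held 5 of the 6 transferases that rose in TCM against control peri-tumor tissue. Its 7 genes lie in 1 cluster on chromosome 3 between 107895821 and 108044894. Gstm6 had 64.4, 60.1, 70.3 and 44.0 CPM in TCM tumors and 105.8, 121, 116 and 113 CPM in TCM peri-tumor tissue, against 43.2, 41.8, 43.1 and 33.4 CPM in control tumors and 45.2, 36.8, 43.4 and 56.2 CPM in control peri-tumor tissue. Each TCM library of either tissue was above each control library of that tissue, and the TCM peri-tumor libraries were the highest of all. Gstm6 rose in TCM against control mice in tumors (log2 0.56 ± 0.15 SE, adjusted p = 0.0315) and in peri-tumor tissue (log2 1.33 ± 0.15 SE, adjusted p = 0.000186) and fell in TCM tumors against TCM peri-tumor (log2 -0.93 ± 0.15 SE, adjusted p = 0.000183). In control mice it was not called (log2 -0.17 ± 0.15 SE, adjusted p = 0.376). Leaving out TCM tumor 1, TCM tumor 3, control tumor 2 or control tumor 4 ended the call in tumors (adjusted p = 0.0576 to 0.101). That call was also lost with no filter on low counts (0.0503) and when only the 2 tumor groups were fitted (0.0662).

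Gstm4 had 103, 104.7, 87.6 and 91.4 CPM in TCM tumors and 107.8, 80.9, 104.6 and 121 CPM in TCM peri-tumor tissue, against 73.8, 54.2, 87.4 and 48.0 CPM in control tumors and 36.7, 28.0, 30.7 and 44.4 CPM in control peri-tumor tissue. The control peri-tumor libraries were the lowest, and TCM libraries of both tissues overlapped. It rose in TCM against control peri-tumor (log2 1.57 ± 0.19 SE, adjusted p = 0.000239) and in control tumors against control peri-tumor (log2 0.91 ± 0.19 SE, adjusted p = 0.00102). All 4 TCM tumors were above all 4 control tumors, but edgeR's test did not pass (log2 0.55 ± 0.19 SE, adjusted p = 0.0804; 0.0359 without control tumor 3), while DESeq2 called it (adjusted p = 0.0376). Gstm3 had 142, 156, 76.6 and 137 CPM in TCM tumors and 197, 159.9, 201.2 and 219 CPM in TCM peri-tumor tissue, against 139.9, 87.6, 161 and 24.8 CPM in control tumors and 45.3, 35.0, 42.0 and 30.9 CPM in control peri-tumor tissue. Control tumor 4 lay below the control peri-tumor range, and the TCM peri-tumor libraries were above all control libraries except control tumor 3, which lay just above the lowest of them. Gstm3 rose in TCM against control peri-tumor (log2 2.34 ± 0.40 SE, adjusted p = 0.00226) and in control tumors (log2 1.43 ± 0.39 SE, adjusted p = 0.00742). It is uncertain, since 28.8% of its 50-base words occur in other genes.

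Gstm5 had 15.5, 11.97, 19.7 and 17.1 CPM in TCM tumors and 11.7, 10.2, 10.1 and 10.4 CPM in TCM peri-tumor tissue, against 15.2, 11.9, 15.5 and 15.1 CPM in control tumors and 7.90, 6.29, 9.03 and 10.1 CPM in control peri-tumor tissue. It was the 1 mu-class gene that rose in tumors of both treatments (TCM log2 0.60 ± 0.16 SE, adjusted p = 0.0098; control log2 0.79 ± 0.16 SE, adjusted p = 0.00111), without overlap of tumor and peri-tumor libraries in either, and it was not called between treatments. It shares its locus with 4933431E20Rik on the opposite strand (920 counts against 3014), from which it cannot be told apart. Gstm2 averaged 33.7 ± 3.31 CPM in TCM tumors and 55.4 ± 3.20 in TCM peri-tumor, and 27.5 ± 8.96 in control tumors and 29.3 ± 6.20 in control peri-tumor. It fell in TCM tumors (log2 -0.72 ± 0.21 SE, adjusted p = 0.0138) and rose in TCM against control peri-tumor tissue (log2 0.92 ± 0.21 SE, adjusted p = 0.0101). Gstm7 averaged 62.0 ± 9.86 CPM in TCM tumors and 64.6 ± 5.14 in TCM peri-tumor, and 39.6 ± 7.48 in control tumors and 40.9 ± 12.9 in control peri-tumor. It rose in TCM against control mice in tumors (log2 0.65 ± 0.19 SE, adjusted p = 0.0469) and peri-tumor tissue (log2 0.66 ± 0.19 SE, adjusted p = 0.0296), both near the threshold.

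The Gstm7 call in tumors was lost without any 1 of 11 libraries (TCM tumors 1 to 3, TCM peri-tumor 1 to 4, control tumors 2 to 4 and control peri-tumor 1; adjusted p = 0.0506 to 0.136). The Gstm7 call in peri-tumor tissue was lost without TCM peri-tumor 2, 3 or 4 or control peri-tumor 1, 2 or 3 (0.0564 to 0.0909). With only the groups compared in the fit both Gstm7 calls were lost (0.0515 in tumors and 0.0577 in peri-tumor tissue). With no filter on low counts the call in tumors was lost (0.0686). Gstm1, the most counted mu gene, averaged 1104 ± 387 CPM in TCM tumors and 1407 ± 218 in TCM peri-tumor, and 1289 ± 662 in control tumors and 701 ± 331 in control peri-tumor. It was higher in the tumor of all 4 control mice without passing the test (log2 0.88 ± 0.43 SE, adjusted p = 0.11), and passed with the mouse as a block (adjusted p = 0.0127) or without control tumor 4 (0.021). All 4 TCM peri-tumor libraries were above all 4 control ones (log2 1.005 ± 0.43 SE, adjusted p = 0.126). Summed with Gstm3 and the pseudogenes Gstm2-ps1 and Gm8834, with which it shares sequence, Gstm1 was also fitted as 1 family, and the sum of the 4, an alternative added after seeing the data, did not pass in any of the 5 comparisons (its adjusted p lay between 0.0841 and 0.813).

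For 4 mu genes, whether the tumor effect was called lower in TCM than in control mice depended on the libraries of control mouse 4 and, for 3 of them, on the tool. In edgeR on all libraries the difference of the tumor effect was log2 -2.03 ± 0.54 SE for Gstm3 (adjusted p = 0.073), -1.013 ± 0.26 for Gstm4 (0.0681), -0.76 ± 0.21 for Gstm6 (0.0759) and -0.62 ± 0.29 for Gstm2 (0.284), none of them called. DESeq2 on all libraries called Gstm3 (adjusted p = 0.00828), Gstm4 (0.0106) and Gstm6 (0.0158). In edgeR without both libraries of that mouse all 4 passed (adjusted p = 0.00368, 0.0128, 0.018 and 0.0352). Without control tumor 4 alone Gstm3 (0.00248), Gstm4 (0.0373) and Gstm2 (0.0497) passed, and Gstm3 also fell in TCM tumors against TCM peri-tumor (0.044; 0.0488 when only the 2 TCM groups were fitted). Without control peri-tumor 4 alone Gstm4 (0.0252) and Gstm6 (0.0235) passed.

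The pi class, a textbook marker of preneoplastic liver in the rat, has near-identical copies that limit the reading of its counts. Gstp1 and Gstp2 lie side by side on chromosome 19 between 4035407 and 4046023, and the processed pseudogene Gstp-ps lies on chromosome 1. Over 631 compared bases the sequence of Gstp-ps is the same as that of the Gstp2 transcript at 99.2% of bases and as that of Gstp1 at 97.6%, with unbroken identical runs of 342 and 303 bases (GENCODE M21). Exon 5 of both genes and the matching stretch of the pseudogene are shown, since these 104 bases hold 6 of the differences that can tell Gstp1 from Gstp2; capitals mark bases that differ from Gstp1.
Gstp1: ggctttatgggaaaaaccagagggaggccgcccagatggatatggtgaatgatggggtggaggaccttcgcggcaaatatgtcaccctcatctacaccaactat
Gstp2: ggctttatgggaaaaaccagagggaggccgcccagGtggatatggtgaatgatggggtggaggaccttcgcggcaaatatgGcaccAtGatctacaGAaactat
Gstp-ps: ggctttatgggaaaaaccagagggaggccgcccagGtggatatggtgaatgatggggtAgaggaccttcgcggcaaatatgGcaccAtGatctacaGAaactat
They lie at chr19:4036688-4036791, chr19:4040982-4041085 and chr1:192074117-192074220 (GRCm38), all on the minus strand. Gstp2 and the pseudogene carry 6 and 7 differences from Gstp1 here, so most of the pseudogene's differences from Gstp1 are also those of Gstp2. Of all counts given to the 3 genes, 83.2% were on the pseudogene, 15.1% on Gstp1 and 1.66% on Gstp2.

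Gstp1 had 79.4, 36.5, 37.0 and 65.1 CPM in TCM tumors, against 172, 164, 107.6 and 203 CPM in TCM peri-tumor tissue. Gstp1 in control mice was at 67.9, 68.0, 77.3 and 53.3 CPM in tumors, against 74.8, 25.7, 109.5 and 110.1 CPM in peri-tumor tissue. Every TCM tumor was below every TCM peri-tumor library, and the control groups overlapped. Gstp1 fell in TCM tumors (log2 -1.57 ± 0.37 SE, adjusted p = 0.0038) and was not called in control tumors (log2 -0.26 ± 0.36 SE, adjusted p = 0.587). Between the peri-tumor groups it did not pass in edgeR (log2 1.02 ± 0.36 SE, adjusted p = 0.0713), though it did without control peri-tumor 4 (0.0408), without control mouse 4 (0.042) and in DESeq2 on all libraries (0.0278). Gstp2 had 15.7, 10.1, 4.18 and 17.4 CPM in TCM tumors, against 8.13, 9.45, 7.63 and 10.9 CPM in TCM peri-tumor tissue. Gstp2 in control mice was at 14.9, 17.9, 13.4 and 6.45 CPM in tumors, against 5.35, 3.75, 6.74 and 6.42 CPM in peri-tumor tissue. It rose in control tumors (log2 1.24 ± 0.37 SE, adjusted p = 0.0125), where only tumor 4 overlapped the peri-tumor range, and was not called in TCM tumors (log2 0.39 ± 0.36 SE, adjusted p = 0.434).

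The sum of the 3 pi-class genes, added after seeing the data, had 529, 336, 218 and 466 CPM in TCM tumors, against 945, 1002, 770.3 and 1259 CPM in TCM peri-tumor tissue. The sum in control mice was at 585, 536, 585 and 372 CPM in tumors, against 487, 149.9, 719 and 622 CPM in peri-tumor tissue. The control peri-tumor library of mouse 2 was the lowest of all 16, and no TCM tumor reached the TCM peri-tumor range. The sum fell in TCM tumors (log2 -1.36 ± 0.37 SE, adjusted p = 0.0102) and was not called in control tumors (log2 0.07 ± 0.36 SE, adjusted p = 0.897) or between treatments (peri-tumor log2 1.007 ± 0.37 SE, adjusted p = 0.0785). Its log2 fold change in control tumors was near 0, while that of Gstp2 alone was 1.24.

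**Figure D5:**
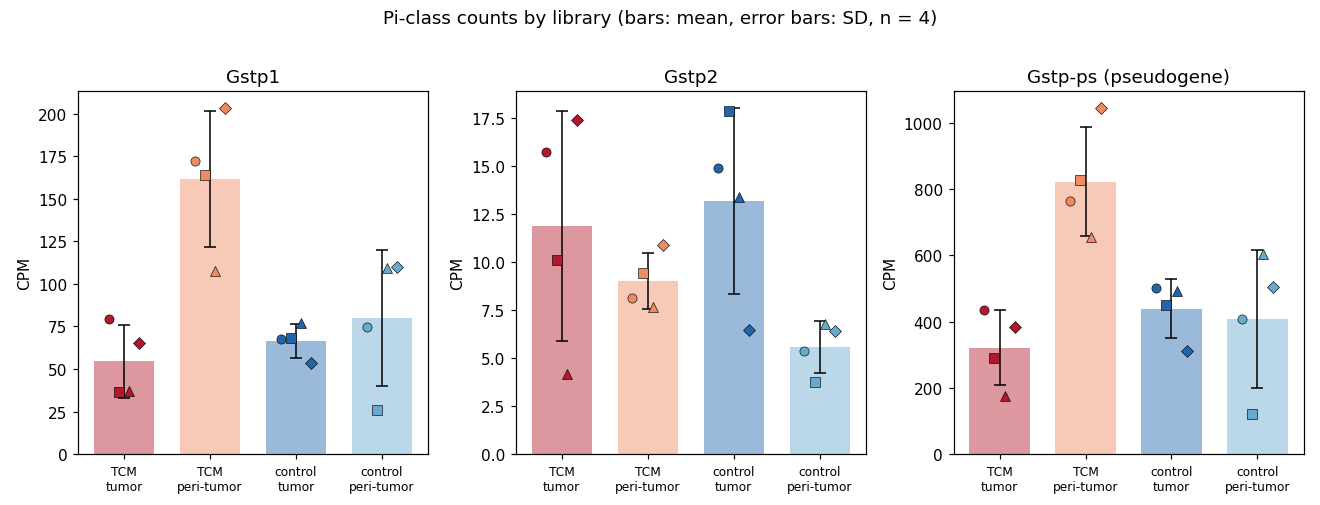
CPM counted for Gstp1, Gstp2 and the pseudogene Gstp-ps in each group, with 1 point per library (symbol by mouse within its treatment), bars at the mean and error bars of 1 SD (n = 4). For the pseudogene every TCM peri-tumor library lies above all libraries of the other groups, for Gstp1 every one of them lies above every TCM tumor, and the panel of Gstp2 has the lowest scale.

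In the theta class edgeR on all libraries called 1 of 3 genes, in 1 comparison. Gstt3 had 60.3, 47.7, 56.0 and 78.9 CPM in TCM tumors, against 85.5, 76.2, 91.0 and 83.5 CPM in TCM peri-tumor tissue. Gstt3 in control mice was at 38.2, 28.4, 25.2 and 29.7 CPM in tumors, against 84.8, 111, 43.3 and 20.6 CPM in peri-tumor tissue. The control peri-tumor libraries spread widely, with mouse 4 the lowest. Gstt3 fell in control tumors (log2 -1.09 ± 0.35 SE, adjusted p = 0.0191), a call lost without control peri-tumor 1 (0.0596) or 2 (0.0848) or when only the 2 control groups entered the fit (0.0692). All 4 TCM tumors were above all 4 control tumors (log2 0.999 ± 0.35 SE, adjusted p = 0.0924; 0.0156 without control peri-tumor 4 and 0.022 without control mouse 4), and DESeq2 called Gstt3 there (adjusted p = 0.0387). With only the groups compared in the fit Gstt3 rose in TCM against control tumors (0.0218) and fell in TCM tumors against TCM peri-tumor (0.0363). Gm20441, a gene on the same strand with 2868 counts, overlaps Gstt3 (14664 counts), and their reads cannot be told apart.

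Gstt1, which activates some halogenated solvents, had 263, 258, 307 and 271 CPM in TCM tumors, against 268, 255, 292 and 306 CPM in TCM peri-tumor tissue. Gstt1 in control mice was at 250.3, 199.7, 205 and 186 CPM in tumors, against 271, 223, 226 and 156 CPM in peri-tumor tissue. Every TCM tumor lay above every control tumor. Gstt2 had 25.9, 33.1, 27.6 and 39.8 CPM in TCM tumors, against 32.5, 41.2, 29.1 and 39.1 CPM in TCM peri-tumor tissue. Gstt2 in control mice was at 33.9, 24.0, 29.6 and 25.02 CPM in tumors, against 57.8, 40.4, 33.0 and 23.1 CPM in peri-tumor tissue. For both genes tumors and peri-tumor tissue overlapped in each treatment. Neither was called in any of the 5 comparisons, but without control peri-tumor 4 Gstt1 passed in TCM against control tumors (adjusted p = 0.0431) and Gstt2 in control tumors against peri-tumor (0.0172).

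The kappa, omega and zeta transferases fell in tumors of both treatments. Gstk1, found in mitochondria and peroxisomes, had 30.4, 31.9, 34.8 and 19.5 CPM in TCM tumors, against 81.4, 77.1, 82.7 and 76.6 CPM in TCM peri-tumor tissue. Gstk1 in control mice was at 20.2, 18.5, 17.7 and 19.0 CPM in tumors, against 76.9, 79.2, 72.7 and 51.1 CPM in peri-tumor tissue. Each tumor was well below each peri-tumor library of its treatment, and Gstk1 fell in TCM (log2 -1.45 ± 0.16 SE, adjusted p = 9.29e-06) and control tumors (log2 -1.89 ± 0.16 SE, adjusted p = 4.06e-07). It rose in TCM against control tumors (log2 0.63 ± 0.16 SE, adjusted p = 0.0284), with TCM tumor 4 within the control range. Leaving out any 1 of TCM tumors 1 to 3 or of control tumors 2 and 3 ended that call (adjusted p = 0.0521 to 0.093). Fitting only the 2 tumor groups ended that call too (0.0615).

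Gsto1, which reduces dehydroascorbate and arsenic compounds, had 50.1, 47.7, 52.6 and 35.9 CPM in TCM tumors, against 88.2, 79.2, 72.4 and 81.1 CPM in TCM peri-tumor tissue. Gsto1 in control mice was at 56.5, 53.5, 53.6 and 46.9 CPM in tumors, against 121, 105.6, 95.7 and 52.7 CPM in peri-tumor tissue. It was lower in the tumor of all 8 mice and fell in TCM (log2 -0.78 ± 0.19 SE, adjusted p = 0.0051) and control tumors (log2 -0.83 ± 0.19 SE, adjusted p = 0.00235). Between the peri-tumor groups it was not called (log2 -0.23 ± 0.19 SE, adjusted p = 0.464) but passed without control peri-tumor 4 (0.0288). Gstz1, maleylacetoacetate isomerase of tyrosine breakdown, had 150.0, 188, 186 and 263 CPM in TCM tumors, against 422, 451, 299 and 291 CPM in TCM peri-tumor tissue. Gstz1 in control mice was at 270.3, 164, 127 and 129.7 CPM in tumors, against 362, 419, 208 and 243 CPM in peri-tumor tissue. It too was lower in the tumor of all 8 mice, with 1 control tumor inside the control peri-tumor range, and fell in TCM (log2 -0.90 ± 0.27 SE, adjusted p = 0.0194) and control tumors (log2 -0.83 ± 0.27 SE, adjusted p = 0.0219). The first call was lost without TCM tumor 1 or TCM peri-tumor 1 or 2 (adjusted p = 0.0525 to 0.0627), and the second without control tumor 3 or 4 or control peri-tumor 1 or 2 (0.0602 to 0.0705). Pomt2 overlaps Gstz1 on the opposite strand (5438 counts against 63631).

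Of the microsomal enzymes Mgst1, which protects membranes from lipid peroxides, had the highest mean FPKM of all members in the peri-tumor tissue of both treatments. It had 900.4, 873, 537 and 654 CPM in TCM tumors, against 2647, 2192, 2523 and 2322 CPM in TCM peri-tumor tissue. Mgst1 in control mice was at 503, 481, 623 and 552 CPM in tumors, against 1771, 1601, 1791 and 1375 CPM in peri-tumor tissue. The tumors and peri-tumor libraries were far apart in each treatment, and Mgst1 fell in TCM (log2 -1.71 ± 0.17 SE, adjusted p = 3.27e-06) and control tumors (log2 -1.60 ± 0.17 SE, adjusted p = 2.56e-06). It rose in TCM against control peri-tumor tissue without overlap (log2 0.57 ± 0.16 SE, adjusted p = 0.0329). That call was lost without any 1 of 7 libraries (control peri-tumor 1 to 4 and TCM peri-tumor 1, 3 and 4; adjusted p = 0.0519 to 0.0847), without both libraries of control mouse 4 (0.0554) and with no filter on low counts (0.0505). DESeq2 also called Mgst1 higher in TCM than in control tumors (adjusted p = 0.0336), which edgeR did not (0.0989). Mgst3 had 11.1, 8.07, 7.65 and 12.2 CPM in TCM tumors, against 7.14, 8.77, 6.42 and 7.93 CPM in TCM peri-tumor tissue. Mgst3 in control mice was at 12.9, 13.1, 17.9 and 10.99 CPM in tumors, against 14.8, 16.3, 9.16 and 4.46 CPM in peri-tumor tissue. Its groups overlapped and it was called in no comparison, but without control peri-tumor 4 it fell in TCM against control peri-tumor (0.0177).

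Levels of different genes were compared per length, in the FPKM the authors deposited. In TCM tumors the 21 transferases summed to 1273 ± 253 FPKM and in TCM peri-tumor to 1899 ± 184, and in control tumors to 1261 ± 376 and in control peri-tumor to 1216 ± 281 (SD, n = 4). The libraries of TCM peri-tumor tissue had 2016, 1810, 1686 and 2084 FPKM, above every library of the other 3 groups, whose sums overlapped. The lowest of them, 1686, was close to the highest of the others, 1670 in control tumor 3. These sums lack the scaling used for the counts, and differences between groups were not tested. They also leave out the pseudogene Gstp-ps, which held 83.2% of the counts given to the 3 pi-class genes. The mu class made up the largest part in tumors of both treatments and in TCM peri-tumor tissue. It was at 591 ± 171 FPKM in TCM tumors against 701 ± 90.1 in TCM peri-tumor, and at 627 ± 299.8 in control tumors against 327 ± 114 in control peri-tumor. In control peri-tumor tissue its mean was just below that of the microsomal class, within their SD. The microsomal class was at 166 ± 43.7 FPKM in TCM tumors against 469 ± 36.5 in TCM peri-tumor, and at 132 ± 19.0 in control tumors against 343 ± 48.1 in control peri-tumor.

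By single genes, the order of FPKM in TCM tumors was Gstm1 (395 ± 143), Mgst1 (157 ± 42.8), Gstt1 (149.9 ± 6.73) and Gclc (132 ± 46.6). Neighbours among the last 3 lay within the larger of their SDs. In control tumors the order was Gstm1 (474 ± 242), Gclc (151 ± 39.98), Ephx1 (129 ± 18.0), Gstt1 (119.7 ± 12.7) and Mgst1 (119 ± 16.9). Neighbours among the last 4 again lay within the larger of their SDs. In control peri-tumor tissue Mgst1 led (333 ± 44.3), ahead of Gstm1 (243 ± 115), Gsta3 (166 ± 85.8) and Gstt1 (116 ± 26.5), where each neighbour of Gsta3 lies within its SD. In TCM peri-tumor tissue Mgst1 (463 ± 36.5) and Gstm1 (455 ± 66.9) were level within their spread, ahead of Gsta3 (205 ± 32.4) and Gstp1 (201.1 ± 59.1). These orders cover members only, and the level of Gstp1 leaves out the counts given to Gstp-ps. The members with the highest folds in control tumors spanned a wide range of levels. Slc7a11 reached 2.40 ± 2.01 FPKM in TCM tumors and 6.56 ± 3.19 in control tumors. Cbr3 reached 10.1 ± 6.90 FPKM in TCM tumors and 45.7 ± 31.8 in control tumors, and Gsta1 34.7 ± 27.8 in TCM tumors and 53.4 ± 29.0 in control tumors. Gsta2 was at 12.03 ± 8.93 FPKM in TCM tumors and 19.1 ± 11.3 in control tumors, and Nqo1 at 12.1 ± 4.70 in TCM tumors and 29.0 ± 14.1 in control tumors.

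Genes next to the members in the same chemistry were read from lists made by function. Of 23 other reported NRF2 targets, all tested, 4 rose and 6 fell in TCM tumors, where 17.3% and 15.6% of all genes did so (median log2 -0.11, beside 0.00 for all genes). In control tumors 9 rose and 4 fell, where 22% and 21.2% of all genes did so (median 0.39, beside 0.00). The 4 that rose in TCM tumors and the 4 that fell in control tumors were near those shares. In TCM against control mice 6 rose in peri-tumor tissue and none fell (median 0.19; 6.71% and 7.35% of all genes), and 2 fell in tumors and none rose (median -0.24; 2.72% and 4.55% of all genes). The exporter Abcc5 rose in TCM (log2 2.90 ± 0.23 SE, adjusted p = 4.74e-07) and control tumors (log2 3.27 ± 0.22 SE, adjusted p = 6.04e-08) and fell in TCM against control tumors (log2 -1.002 ± 0.20 SE, adjusted p = 0.011). Aldose reductase, Akr1b3, rose in both (TCM log2 2.21 ± 0.24 SE, adjusted p = 6.64e-06; control log2 1.74 ± 0.23 SE, adjusted p = 2.33e-05). The retinal dehydrogenase Aldh1a1 and the nucleotidase Entpd5 fell in both, Aldh1a1 by a log2 fold change of -1.76 ± 0.20 SE in TCM and -1.37 ± 0.20 in control tumors and Entpd5 by -1.07 ± 0.13 and -0.49 ± 0.13 (adjusted p 1.24e-05 to 0.00742), and both rose in TCM against control peri-tumor tissue (log2 1.02 and 0.81).

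Of 27 genes of glutathione synthesis, breakdown and peroxidases 24 were tested, and 5 rose and 10 fell in TCM tumors (median log2 -0.35; 17.3% and 15.6% of all genes), while 8 rose and 10 fell in control tumors (median 0.12; 22% and 21.2% of all genes). The 5 that rose in TCM tumors were near the share of all genes. The transsulfuration enzymes that make cysteine from methionine fell in both. Cbs averaged 204 ± 42.4 CPM in TCM tumors against 417 ± 20.8 in TCM peri-tumor (log2 -1.03 ± 0.23 SE, adjusted p = 0.0025) and 85.9 ± 32.6 in control tumors against 317 ± 76.9 in control peri-tumor (log2 -1.88 ± 0.23 SE, adjusted p = 1.10e-05). Cth fell by a log2 fold change of -1.56 ± 0.18 SE in TCM and -1.73 ± 0.18 in control tumors (adjusted p 1.09e-05 and 1.92e-06). The glyoxalases Glo1 and Hagh, which use glutathione to clear methylglyoxal, fell too, with log2 fold changes of -1.33 and -0.89 in TCM tumors and -1.19 and -1.27 in control tumors. Cbs (log2 1.25 ± 0.23 SE, adjusted p = 0.00639), Glo1 (log2 0.77 ± 0.16 SE, adjusted p = 0.0117) and Hagh (log2 0.60 ± 0.13 SE, adjusted p = 0.0137) rose in TCM against control tumors. In that comparison 4 genes of the list rose and 2 fell (median 0.10; 4.55% and 2.72% of all genes), and in peri-tumor tissue 4 rose and 2 fell (median 0.16; 6.71% and 7.35% of all genes).

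Of 17 thioredoxin, peroxiredoxin and other antioxidant genes, all tested, 1 rose and 10 fell in TCM tumors (median log2 -0.55; 17.3% and 15.6% of all genes) and 1 rose and 11 fell in control tumors (median -0.71; 22% and 21.2% of all genes). Catalase, Cat, averaged 1593 ± 167 CPM in TCM tumors against 3637 ± 264 in TCM peri-tumor (log2 -1.19 ± 0.14 SE, adjusted p = 1.55e-05), and 1060 ± 191 in control tumors against 2104 ± 85.8 in control peri-tumor (log2 -0.99 ± 0.14 SE, adjusted p = 3.94e-05). The methionine sulfoxide reductase Msrb1, the peroxiredoxin Prdx6 and the mitochondrial superoxide dismutase Sod2 fell in both treatments, by log2 fold changes of -0.90, -1.10 and -0.94 in TCM tumors and -1.37, -0.79 and -1.04 in control tumors. In TCM against control mice 3 of the 17 rose in peri-tumor tissue (median 0.12; 6.71% of all genes) and 3 in tumors (median 0.23; 4.55% of all genes), and none fell in either, with Cat rising in both (peri-tumor log2 0.79 ± 0.14 SE, adjusted p = 0.00273; tumors log2 0.59 ± 0.14 SE, adjusted p = 0.0205). No gene of these lists, nor of the other 2, had a called difference of the tumor effect between treatments.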

How the data were processed

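RNA was isolated with the mirVana kit and made into stranded mRNA libraries with the VAHTS kit, per the labels' protocols. The authors deposited read counts per gene and FPKM, a value scaled to gene length and library size, for 16 libraries. Both mm9 and mm10 are named as builds in the submitters' processing notes, and no source used here gives the aligner, the counter or the strand used for counting. The deposited FPKM followed from the counts, with a largest deviation of 0.0019% over 9176 genes with at least 50 counts. The 115 rows with no symbol held at most 0.0171% of a library and stayed out.

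Counts were fitted with edgeR 4.0.16 (R 4.3.3, TMM scaling, filterByExpr with a count minimum of 10, quasi-likelihood test) in 1 model of 4 groups and 12 residual degrees of freedom over 14865 genes, and p-values were adjusted by Benjamini-Hochberg over all of them. CPM are counts over the scaled library total. Each log2 fold change is from the counts, with its SE from the test statistic. DESeq2 1.42.0, other scaling and filters, leaving out libraries and blocks were alternatives. The scripts were tested on simulated data. The deposited FPKM, which carry no TMM scaling, were used to compare levels of genes and to describe class sums in each group, without a test. Figures were drawn with matplotlib 3.10.9.

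Labels give each mouse a code, so tumor and peri-tumor tissue of 1 mouse are paired. Deviations of the 2 tissues from their group means correlated at 0.04 to 0.24 (Pearson's r across genes, which are not independent replicates), and 7 of 8 tumors correlated best with their own mouse. The 4 libraries of a group are separate mice. The main fit used 1 estimate of each gene's spread over all 4 groups and left out the mouse. Its tumor against peri-tumor p-values thus do not measure the spread of differences within mice, which the mouse block takes into account. Members and lists were chosen with earlier results of these data known. Every member is reported. Within each role, values in every library are given for up to 4 members with the lowest p over the 5 comparisons and at least 1 CPM in a group, and for members with a called difference, and up to 4 genes of each other list are named by the same rule. Genes sharing at least 25% of 50-base words with another transcript are called uncertain.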

Additional observations from a re-analysis of the deposited data

Results flagged for a closer look

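The 37 members in 4 groups gave 148 sets of 4 libraries, of which 5 held a library far from the other 3; chance gives about 1 set in 20. Gsta1 had 103 CPM in control tumor 3, against 36.5 to 47.4 in the other control tumors. Gstm5 had 11.9 CPM in control tumor 2, against 15.1 to 15.5 in the others. Gstm6 had 33.4 CPM in control tumor 4, against 41.8 to 43.2 in the others. Nfe2l2 had 130.9 CPM in TCM tumor 4, against 73.8 to 82.0 in the other TCM tumors. Hmox1 had 17.4 CPM in TCM peri-tumor 3, against 14.01 to 14.5 in the other TCM peri-tumor libraries.

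The tumor effect differed between TCM and control mice, by the test of the difference itself, for Gclc (log2 -1.65, adjusted p = 0.0297) and for Aox1 (log2 -1.74, adjusted p = 0.00867). The tumors of both treatments had like means, 508 ± 161 CPM in TCM and 562 ± 147 in control tumors for Gclc and 38.9 ± 10.4 and 39.1 ± 8.51 for Aox1, and the peri-tumor means differed, 521 ± 97.2 CPM in TCM and 184 ± 35.2 in control mice for Gclc and 74.1 ± 5.77 and 22.3 ± 5.79 for Aox1 (SD, n = 4).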

How the results depend on the processing

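Of 60 member calls over the 5 comparisons, 45 were kept under each of the alternatives run for them, 15 were lost under at least 1, and none changed sign; 24 alternatives were run in all. Counts that moved by over 1.5 times were all between treatments. Members rising in TCM against control tumors numbered 4, but 7 with DESeq2, 2 with no filter on low counts and 2 when only the groups compared were fitted. Members falling there numbered 0, but 2 with DESeq2 and 3 without control mouse 4. Members falling in TCM against control peri-tumor tissue numbered 1, but 3 without control mouse 4. Members with a lower tumor effect in TCM mice numbered 2, but 8 with DESeq2, 9 without control mouse 4 and 1 with the mouse as a block, and those with a higher one numbered 0, but 1 without control mouse 4. The cause was not tested.

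With 1 library left out at a time, 6 to 9 members rose and 8 to 10 fell in TCM tumors, 17 to 19 rose and 6 to 10 fell in control tumors, 7 to 11 rose and 1 to 3 fell in TCM against control peri-tumor tissue, and 0 to 6 rose and 0 to 3 fell in TCM against control tumors. The tumor effect was higher in TCM mice for 0 to 0 members and lower for 1 to 6. Beyond those named with each gene, the mouse block changed no other call. The libraries also carry numbers 1 to 4 in each group, which the labels tie to nothing across treatments. By number, correlations across treatments were -0.10 to 0.00 in tumors and 0.01 to 0.11 in peri-tumor tissue. TCM peri-tumor libraries 1, 2 and 3 correlated best with the control library of the same number, and no TCM tumor did. What lies behind this was not tested. With that number as a block 10 members rose and 1 fell in peri-tumor tissue and 3 rose in tumors, where Gstm7 was lost (adjusted p = 0.0596).

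Scaling by another factor moved the median of all genes by at most 0.01 (log2). With 4 mice a group the precision is limited, and counts cannot be split between near-identical genes such as Gsta1, Gsta2, Gstp1 and Gstp2.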
